A study of Lolium perenne with 10 samples.

Results

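Drought and submergence are opposite extremes of water supply, and the leaf transcriptomes of perennial ryegrass (Lolium perenne), an outcrossing grass of temperate pastures and lawns, were compared between them. The genes compared were the rows of the read-count table with at least 10 counts in both drought libraries or in both control libraries. They number 19056 of 46394 (41.1%). Of these, 17033 entered through the control libraries and are called control-read genes here, and 2023 entered through the drought libraries alone. Drought counts thus took part in the choice of rows, while submergence counts did not, and sequences read only under submergence are outside the comparison. The members were thus selected on counts. The control-read genes were chosen without any drought or submergence count, so the difference between these treatments was tested on them, and nothing is read from the calls of genes that entered through drought alone, which are given as a description.

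Seedlings of the drought group were 7 days old when watering stopped, and stayed dry for 7 days, and the submergence group was placed under water for a time and at a depth not given in the sources used here. The title-heat and title-cold groups were treated for 12 h at an age of 14 days, one at 42 °C and the other at 4 °C, and the control group was untreated. All groups are labelled wild type, are leaf tissue and have 2 libraries, each from 30 seedlings. The plants grew in peat soil and vermiculite in a chamber kept at 22 °C in the light and 18 °C in the dark, on days with a photoperiod of 16 h. The temperature groups are named after their titles because the treatment fields contradict the titles, and neither group is given a temperature. Another protocol in the labels, which speaks of Arabidopsis, has plants of 14 days go without water for 2 weeks and then recover for 5 days. Whether any of it applies to these seedlings is not stated. The ages of the submergence and control seedlings are not given, so a difference in age cannot be told apart from the treatment.

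Plants that lose water accumulate abscisic acid, which closes stomata, and they make compatible solutes and protective proteins such as dehydrins. Submerged plants face slow gas exchange and dim light. Ethylene builds up and oxygen falls in their tissues, which engages ethylene-response transcription factors and fermentation enzymes such as alcohol dehydrogenase. Both conditions are known to limit photosynthesis in grass leaves. None of these genes could be looked up, because the rows are assembled sequence clusters whose IDs the files do not pair with names, and 0 of them match an entry of the Kyuss_2.0 reference table, which lists 56406 genes. Genes are therefore described by their levels and by classes, the leaf label was not checked against marker genes, and sequence letters are not shown.

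Total counts were 11319380 and 11398828 in the drought libraries, 10900814 and 12605087 in the submergence libraries, and 10847727 to 11479502 in the other 6. The compared rows held 99.6% of the counts under drought (SD 0.03, n = 2) and 94.3% under submergence (SD 0.32, n = 2). The rows left out held 0.37% and 5.68%. Of the 19056 rows, 19020 passed the filter on low counts and were tested, among them every control-read gene. The 36 others had entered through drought alone. At the edge of the rule, 348 rows qualified with exactly 10 as their deciding count, with medians of 10.5 counts under drought, 14.8 under submergence and 10.5 in control. The 399 rows that just missed, at 9 counts, had medians of 9.5, 13 and 10.

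Drought and submergence leaves differed in about as many control-read genes in each direction. Of the 17033 genes, 4856 were higher under drought and 4194 lower by edgeR's quasi-likelihood test at a Benjamini-Hochberg adjusted p below 0.05. That is 28.5% and 24.6%, beside 21.7% and 33.7% of all 27571 genes tested (55.3% in either direction). The lower share over all genes contains the sequences read only under submergence. Genes at least 2-fold apart numbered 3776 higher and 3007 lower, genes at least 4-fold apart 1837 and 1025, and genes at least 16-fold apart 379 and 174. The median log2 difference was 1.67 for the higher and −1.37 for the lower genes, with genes at 0 counts on one side set at the bound that 3 counts per library give. The nearly even split holds for levels scaled with TMM factors. With total counts in place of these factors, 2982 genes were higher and 7608 lower, since the log2 fold changes then move by a median of −0.64. The labels do not say whether libraries of a group came from separately grown cultures, and the p-values reflect only how far these libraries spread, part of which may be technical.

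The distance between the treatments exceeded the distance between replicates. Over the control-read genes, the median absolute log2 difference was 0.89 between the drought mean and the submergence mean. It was 0.30 between the drought replicates and 0.26 between the submergence replicates. Across these genes the drought libraries correlated with the submergence libraries at r = 0.72 to 0.75, and with each other at 0.94. With the title-cold libraries they correlated at 0.70 to 0.73, so low values were not particular to submergence. With control the range was 0.81 to 0.84, and with title-heat 0.85 to 0.86. These are correlations across genes, which are not replicates. In the plot of drought against submergence levels, most genes follow the diagonal and the upper end of the cloud lies above it.

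**Figure D1:**
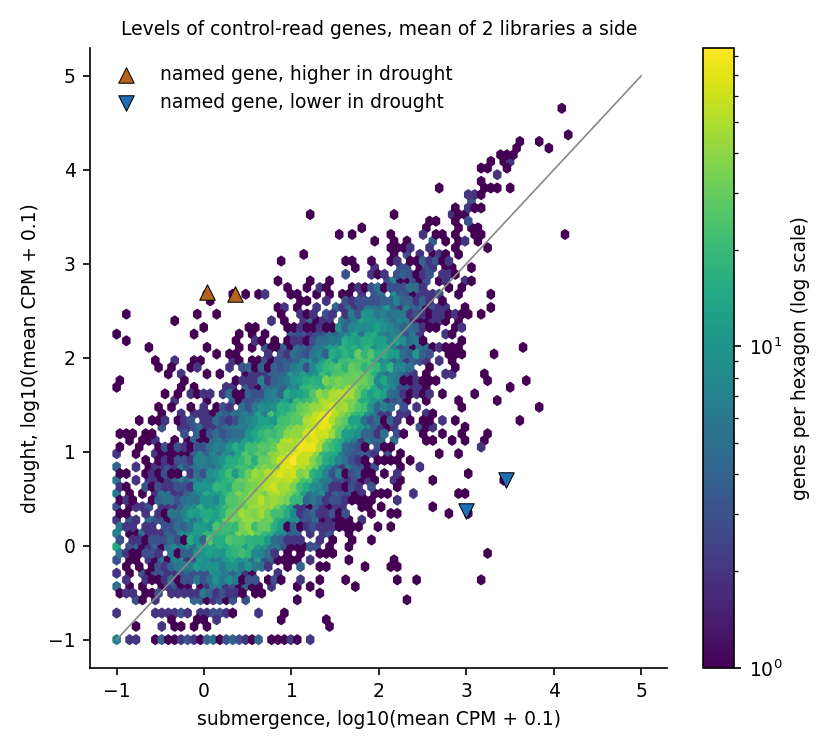
Levels of the 17033 control-read genes under drought (vertical axis) and submergence (horizontal axis), each as log10 of the mean CPM of 2 libraries plus 0.1. Colour gives the number of genes per hexagon on a log scale, the line marks equal levels, and triangles mark the 4 named genes, the 2 on each side with the largest fitted fold change among the genes open to naming. The 4856 genes higher under drought lie above the line and the 4194 lower genes below it.

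Genes higher under drought were, in the median, more heavily read in untreated leaves than genes lower under drought. For the 4856 higher genes the median was 34.6 CPM in each drought library, with 10.02 and 11.1 CPM in those of submergence. In control their medians were 20.7 and 20.3 CPM, between the levels of both treatments. The 4194 lower genes had a median of 6.84 CPM in each drought library and of 19.2 and 19.0 CPM in the submergence libraries. Their control medians were 9.29 and 10.02 CPM, again between both treatments. CPM is a count scaled to library size that is not corrected for gene length, so these are levels of reading and not of transcript number. The choice of genes fixes the order of drought and submergence here. The control libraries are in neither side of the contrast, but their counts chose the rows and they entered the scaling and the shared estimate of spread.

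The control level lay nearer to the drought level than to the submergence level in most genes of both classes. It did so in 61% of the genes higher under drought and in 56.2% of the lower genes. On levels scaled to total counts the shares were 52.7% and 69.6%. Each treatment's own comparison with control shows the same genes from the other side, and both use the same control libraries. Each comparison also uses drought or submergence libraries that defined the classes. A rise under drought and a fall under submergence were thus favoured for the higher genes, and the reverse for the lower genes. Against control, the genes higher under drought had a median log2 change of 0.51 under drought and −1.25 under submergence. The lower genes had medians of −0.54 under drought and 0.76 under submergence. In the drought comparison 1942 of the 4856 higher genes rose and 641 fell, where 15.2% and 11.7% of all genes tested were called. In the submergence comparison 338 of them rose and 3079 fell, where 32.2% and 17.1% of all genes were called. Of the 4194 lower genes, 359 rose and 1432 fell under drought, and 2181 rose and 132 fell under submergence.

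How a gene differed between drought and submergence depended on its control level. Among the 5302 control-read genes under 5 CPM in control, 19.4% were higher under drought and 22.9% lower. Among the 9218 genes at 5 to 50 CPM, 25.4% were higher and 27.9% lower. Above that the balance turned, with 56.2% higher and 17.9% lower among the 2283 genes at 50 to 500 CPM. Of the 230 genes over 500 CPM, 200 (87.0%) were higher under drought and 5 (2.17%) lower. The median log2 difference climbed through these classes from −0.26 and −0.10 to 0.64 and 1.72. Scaled to total counts, the medians were −0.91, −0.75, −0.0006 and 1.08, so the order of the classes stayed while the turn towards drought came only in the highest class. More heavily read genes are also called more readily, which the medians do not depend on.

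**Figure D2:**
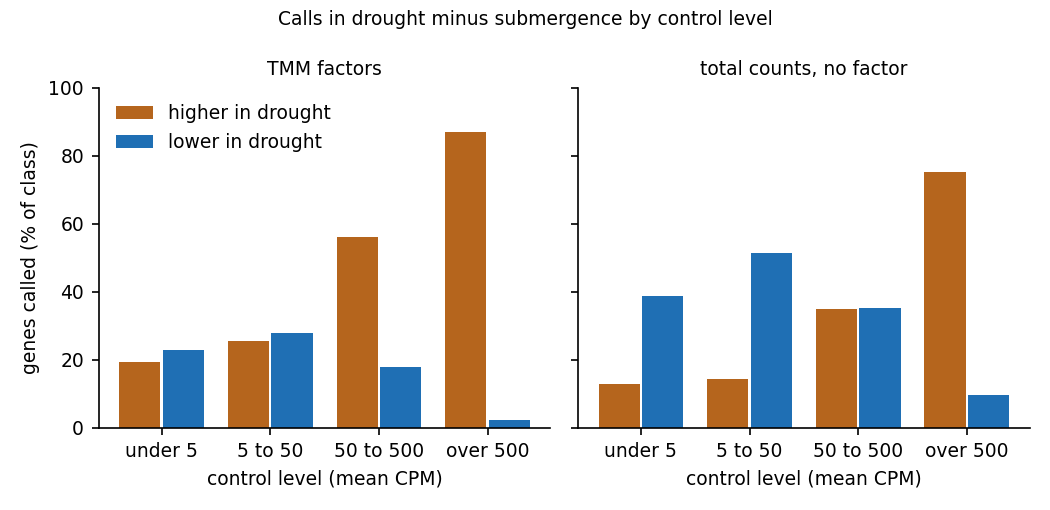
Share of control-read genes called higher or lower under drought than under submergence (vertical axis, % of the class) in 4 classes of control level (horizontal axis, mean CPM), with TMM factors on the left and with total counts on the right. The share of higher genes climbs with control level in both panels, to 87.0% on the left and 75.2% on the right.

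The most-read genes of untreated leaves were nearly all lower under submergence than under drought. Of the 100 control-read genes with the highest control level, 95 were higher under drought than under submergence, 2 were lower and 3 did not pass the test. Their median log2 difference was 1.94. With total counts 83 were higher and 4 lower. Against control their median log2 change was −0.22 under drought, with 6 genes up and 25 down, and −2.09 under submergence, with 1 up and 98 down. A fall of heavily read genes was not particular to submergence. The 230 genes over 500 CPM in control had a median log2 change of −2.05 under submergence and −1.35 in title-cold. It was −0.27 under drought and −0.13 in title-heat. The control libraries ranked the 100 genes and set this class, which favours a fall in each comparison with control. That fall can be larger in the treatment farther from control, so the ranking may also favour a difference between the treatments. All 10 genes at the head of this ranking were higher under drought, by log2 differences of 0.80 to 2.60. The gene at the top of the ranking had 50285 and 40267 CPM under drought, 10812 and 12822 under submergence, and 57340 and 47393 in control. Its drought and control levels overlap, and its submergence libraries lie below all of them (log2 difference 1.94, SE 0.23, adjusted p = 0.000175, edgeR). The gene at the third place had 12529 and 20286 CPM under drought, 7920 and 10385 under submergence, and 46795 and 29699 in control. There both treatments lie below control, and the gap between them is small (log2 difference 0.84, SE 0.30, adjusted p = 0.0376, edgeR).

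Few of these heavily read genes went the other way. The gene at rank 19 had 1453 and 2568 CPM under drought, 12579 and 12965 under submergence, and 7297 and 8580 in control, so that control separated the treatments (log2 difference −2.67, SE 0.26, adjusted p = 6.15e-05, edgeR). The gene at rank 99 had 456 and 460 CPM under drought, 708 and 916 under submergence, and 1133 and 1280 in control (log2 difference −0.83, SE 0.17, adjusted p = 0.00346, edgeR). Both treatments lie below control for this gene, drought the farther.

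Shares of each library's counts need no scaling factor, though the classes were called with TMM factors. The shares show how the libraries were divided between these classes. The 4856 genes higher under drought held 79.1% and 78.2% of the counts in the drought libraries and 34.3% and 37.6% in the submergence libraries. In control, which is in neither side of the contrast, they held 78.1% and 75.2%. The 4194 genes lower under drought held 6.45% and 6.84% of the counts under drought, 37.5% and 35.5% under submergence, and 8.11% and 9.64% in control. Gene by gene, drought differed from control in 36.2% of the control-read genes, beside 26.9% of all genes tested (edgeR). Between these wide classes alone, the drought libraries divided their counts much as control did, and the submergence libraries did not. Title-cold libraries also departed from control, less far, holding 61.3% and 59.7% in the higher class and 16.3% and 16.7% in the lower class. Title-heat libraries held 74.3% and 75.2% in the higher class and 9.25% and 8.78% in the lower class. The 7983 genes that were not called held 12.99% and 13.3% under drought, 21.1% and 20.2% under submergence, and 13.3% and 14.6% in control. The 100 most-read compared genes of each library's own ranking held 44.4 ± 0.57% of its counts under drought, 28.7 ± 1.27% under submergence and 50.1 ± 2.34% in control (SD, n = 2). In such bulk leaf samples, fewer cells of a type and less RNA per cell cannot be told apart.

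**Figure D3:**
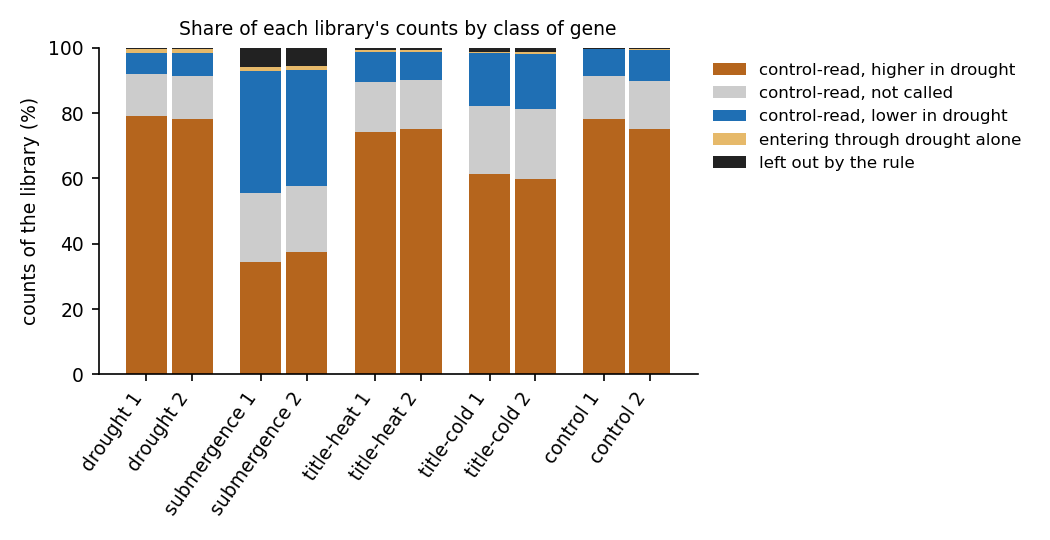
Share of each library's counts (vertical axis, %) in 5 classes of rows, stacked, for the 10 libraries along the horizontal axis. Control-read genes higher under drought than submergence take 78.2% to 79.1% in the drought libraries and 34.3% to 37.6% in the submergence libraries, while the black top segment, the rows left out by the rule, is largest under submergence.

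The largest differences were found by ranking the fitted log2 fold change among called genes with at least 10 counts in every drought, submergence and control library and no overlap between the treatments. This left 4316 genes higher and 3616 lower under drought, and the 2 at each end are named. Before the conditions on counts and overlap, 30.4% of the compared genes tested were called higher and 22.8% lower. Of all genes tested the shares were 21.7% and 33.7%. The 4316 and 3616 genes are only the pool for the ranking. The cluster c153139.graph_c0 had 451 and 555 CPM under drought, 1.19 and 0.80 under submergence, 1.31 and 0.97 in title-heat, 55.4 and 59.3 in title-cold, and 5.26 and 6.62 in control. Drought lies above control and submergence below it, so this gene moved apart in both directions. Its drought level was 504-fold its submergence level (log2 difference 8.98, SE 0.26, adjusted p = 7.09e-07, edgeR). Against control it rose by 6.40 on the log2 scale under drought (adjusted p = 5.12e-06) and fell by 2.58 under submergence (adjusted p = 6.57e-05).

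The cluster c166421.graph_c0 had 698 and 252 CPM under drought, 2.18 and 2.14 under submergence, 33.5 and 35.8 in title-heat, 380 and 498 in title-cold, and 3.47 and 3.80 in control. The drought replicates are far apart, yet even the lower of them lies far above both submergence libraries (log2 difference 7.77, SE 0.53, adjusted p = 1.33e-05, edgeR). Its submergence level missed the test against control (log2 change −0.75, SE 0.54, adjusted p = 0.288). The title-cold and drought libraries overlap for this gene.

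At the other end, c154711.graph_c1 had 3.73 and 6.13 CPM under drought, 2881 and 2846 under submergence, 4.71 and 4.59 in title-heat, 3.76 and 4.54 in title-cold, and 14.5 and 10.8 in control. All libraries but the submergence pair lie at or below 14.5 CPM, and drought lies below control (log2 change −1.35, adjusted p = 0.00383, edgeR). Drought and submergence differ 578-fold (log2 difference −9.18, SE 0.30, adjusted p = 7.75e-07, edgeR). The cluster c149215.graph_c0 had 2.70 and 1.81 CPM under drought, 1027 and 962 under submergence, 3.18 and 1.33 in title-heat, 30.6 and 31.1 in title-cold, and 1.57 and 1.65 in control. Here drought did not pass the test against control (log2 change 0.48, SE 0.38, adjusted p = 0.418), and the submergence libraries lie far above all others (log2 difference between drought and submergence −8.78, SE 0.33, adjusted p = 1.06e-06, edgeR).

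**Figure D4:**
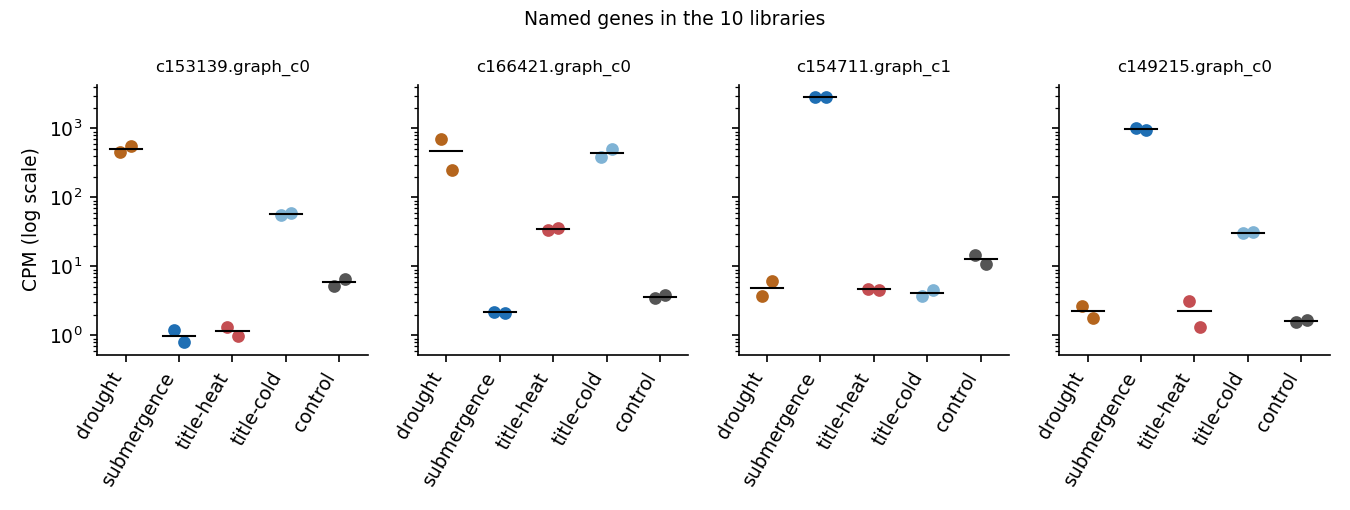
CPM (vertical axis, log scale) of the 4 named genes in the 10 libraries, by group along the horizontal axis, with a dot per library and a bar at the group mean. The first pair is higher under drought than under submergence (504-fold for c153139.graph_c0) and the last pair lower (578-fold for c154711.graph_c1).

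Other genes at the ends of this ranking differed in how they stood to control. Among the 10 largest on the drought side, log2 differences ran from 8.98 to 6.59. Drought means were 75.7 to 3165 CPM, submergence means 0.76 to 15.4 and control means 1.96 to 1812. Against control, 9 of them rose under drought, and 5 fell under submergence. Over all genes tested, 15.2% rose under drought and 17.1% fell under submergence. The third gene of this ranking had 1397 and 4933 CPM under drought, 8.53 and 22.3 under submergence, 2593 and 2585 in title-heat, 139 and 132 in title-cold, and 2305 and 1319 in control, so drought and control overlap, submergence is the lowest group and title-cold is also below control. The fifth gene had 783 and 1281 CPM under drought, 2.31 and 13.7 under submergence, 241 and 256 in title-heat, 1.03 and 1.40 in title-cold, and 2.46 and 1.46 in control, so drought is the highest group and title-heat is also far above control. Among the 10 largest on the submergence side, log2 differences ran from −9.18 to −7.20, drought means were 2.25 to 29.7 CPM, submergence means 397 to 7217 and control means 1.61 to 78.2. All 10 rose under submergence against control, and 3 fell under drought. Over all genes tested, 32.2% rose under submergence and 11.7% fell under drought. Ranking by the difference between the treatments favoured these directions against control on both sides, also for the named genes, so nothing is read from them. The fifth gene on that side had 23.2 and 36.2 CPM under drought, 7590 and 6844 under submergence, and 30.8 and 48.3 in control.

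Some genes read in control were not read at all in a treatment. Of the 17033 control-read genes, 61 had 0 counts in both drought libraries, 90 had 0 in both submergence libraries, and 7 had 0 in all 4. They were lightly read in control, with medians of 2.73 CPM for the genes not read under drought and 2.36 CPM for those not read under submergence, and maxima of 25.9 and 27.1 CPM. Each 0 is compatible with as many as 3 counts (about 0.31 CPM under drought and 0.19 CPM under submergence), which covers counting error alone. Of the 61 genes, 29 were called lower under drought than under submergence, and of the 90 genes, 72 were called higher. These directions were fixed in advance by the 0 counts. Among all control-read genes, 24.6% were called lower and 28.5% higher. In the temperature groups, which were not used to find these genes, 3 of the 61 also had 0 counts in both title-heat libraries and 8 in both title-cold libraries. Of the 90 genes the numbers were 29 and 16. Of all 17033 control-read genes, 77 had 0 counts in both title-heat libraries and 55 in both title-cold libraries.

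The 2023 genes that entered through drought alone were mostly lightly read. The 1987 of them that were tested had a median of 2.76 CPM under drought, 0.90 under submergence and 0.68 in control, and their highest drought mean was 551 CPM. In all, 151 of the 2023 had 0 counts in both submergence libraries and 145 had 0 in both control libraries, while 993 reached 10 counts in each submergence library. In the temperature groups, 843 had at least 10 counts in both title-heat libraries and 808 in both title-cold libraries. The call rule marked 921 of them higher and 146 lower under drought (46.4% and 7.35% of those tested). Nothing is read from this split because drought counts admitted these rows. Over all compared rows, these included, the call rule gave 5777 higher and 4340 lower genes, which is likewise a description. These are 30.4% and 22.8% of the compared genes tested, beside 21.7% and 33.7% of all genes tested. With rows read in both submergence libraries also admitted the numbers were 5777 and 9150.

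The contrast of title-heat with title-cold shares no library with that of drought with submergence, and control-read genes tended to go the same way in both. Title-heat differed from title-cold in 8210 of the 17033 genes, with 25.6% higher and 22.6% lower, beside 19.6% and 17.8% of all genes tested (37.4% in either direction). Among the genes higher under drought than submergence, 2526 were higher and 473 lower in title-heat, so 84.2% of their calls were higher. Among the genes lower under drought, 541 were higher and 1488 lower, or 26.7% higher. Among the genes not called between drought and submergence, 40.7% of 3182 calls were higher. Taking both classes, 4014 genes were called in the same direction in both contrasts and 1014 in opposite directions, a share of 79.8% in the same direction. The 4014 genes are 44.4% of the genes called between drought and submergence and 48.9% of those called between title-heat and title-cold. With total counts 6089 were in the same direction and 1109 opposite. Total counts move both contrasts the same way, by medians of −0.64 (drought minus submergence) and −0.71 (title-heat minus title-cold). That favours calls in the same direction, and the correlation of the contrasts stayed at r = 0.33. Without title-heat replicate 1 the numbers were 2917 and 668, and the share in the same direction was 81.4%.

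The likeness was moderate gene by gene, and the temperature groups differed in it. Across the 17033 genes the log2 fold changes of both contrasts correlated at r = 0.32 (Spearman's rho = 0.38). This is a description across genes, which share libraries and depth within each contrast. Against control, the genes higher under drought had a median log2 change of 0.18 in title-heat and −0.60 in title-cold. There, 1283 rose and 634 fell in title-heat, and 370 rose and 1989 fell in title-cold. The genes lower under drought had medians of −0.10 in title-heat and 0.35 in title-cold, with 503 up and 549 down in title-heat, and 1064 up and 378 down in title-cold. Over all genes tested, 12.3% rose and 8.33% fell in title-heat, and 11.1% rose and 12.2% fell in title-cold. These comparisons share their control libraries with each other and have no drought or submergence library on either side, though scaling and the estimate of spread come from all 10 libraries. By level, title-heat lay nearer to drought than to submergence in 72.6% of the genes higher under drought and 64% of the lower genes. Title-cold did so in 38.1% and 40.6%. On total counts the shares were 57.4% and 83.3% for title-heat, and 47.2% and 31.7% for title-cold.

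**Figure D5:**
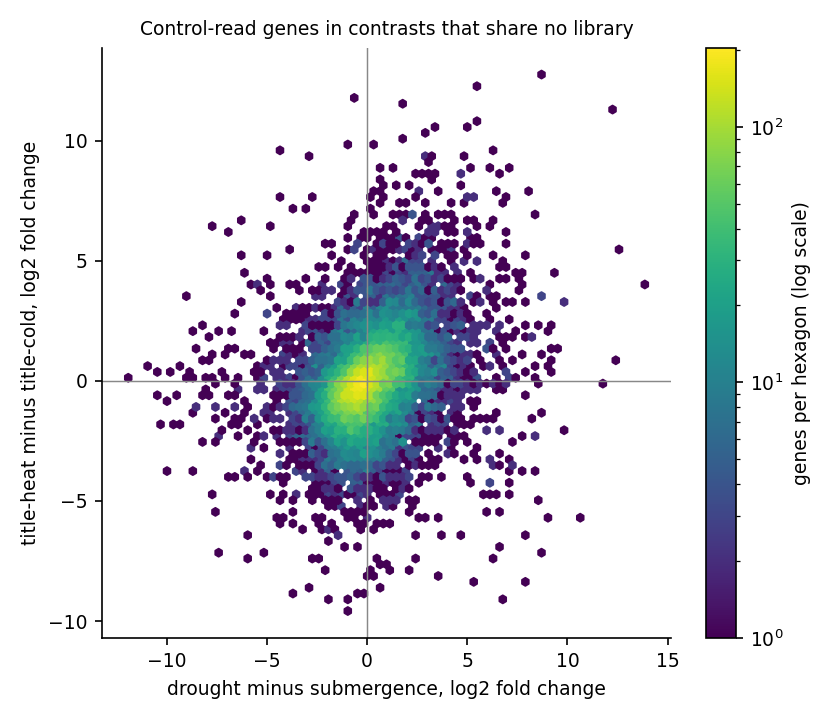
Log2 fold change of title-heat minus title-cold (vertical axis) against that of drought minus submergence (horizontal axis) for the 17033 control-read genes, with colour for the number of genes per hexagon on a log scale. The cloud leans from the lower left to the upper right (r = 0.32), with many genes outside that lean.

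The difference between these contrasts was itself tested. In 6065 of the 17033 control-read genes (35.6%, beside 27.1% of all genes tested) the drought minus submergence difference was not equal to the title-heat minus title-cold difference (edgeR, adjusted p below 0.05). The 4 named genes are among them. The cluster c153139.graph_c0 is higher under drought than under submergence and lower in title-heat than in title-cold (log2 change −5.63, SE 0.25, adjusted p = 9.77e-07, edgeR), and c166421.graph_c0 has the same pattern (log2 change −3.66, SE 0.43, adjusted p = 0.000258, edgeR).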

How the data were processed

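RNA-seq read counts of 10 leaf libraries in 5 groups of 2 were analysed. The authors deposited 1 table of whole-number counts for 46394 assembled clusters, of which 1 had 0 counts throughout. Its name speaks of bermudagrass and cold as well as perennial ryegrass, but its columns match the sample descriptions. Per the submitters' processing notes the tools were RSEM and DESeq 1.10.1, for which no role is stated. If RSEM made the counts, they are rounded estimates, and reads shared by similar clusters were split. Aligner, assembly and strandedness: not given in the sources used here. The labels' extraction protocol speaks of bermudagrass.

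The tests used edgeR 4.0.16 (R 4.3.3) on all 10 libraries: filterByExpr (minimum count 10, minimum total 15), TMM factors, and a robust quasi-likelihood fit with a coefficient per group and 5 residual degrees of freedom. Adjusted p-values cover all 27571 genes tested, and genes below 0.05 were called. CPM is scaled by TMM factor. SE is an approximation, the absolute log2 fold change divided by the square root of its quasi-likelihood F statistic. Absolute log2 differences use CPM with a prior count of 2, and nearness to a group uses log2(CPM + 0.1). The chi-square of replicate pairs was at least 7.05 times its degrees of freedom, beyond counting noise, so no pair was taken as 1 library deposited in duplicate. The procedure was tested on simulated counts. Alternatives used DESeq2 1.42.0, limma 3.58.1, other factors, filters, libraries and thresholds, and a replicate block. Named genes had to be called, to have at least 10 counts in each drought, submergence and control library and not to overlap between the treatments. From these, the 2 largest fold changes in each direction were taken. The genes compared and the classes were chosen with earlier results of these data known. The share of counts held by the tested genes was at least 99.24% in each library.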

Additional observations from a re-analysis of the deposited data

Results flagged for a closer look

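In the 4 named genes the drought minus submergence difference was not equal to the title-heat minus title-cold difference, by edgeR's test of the difference between the contrasts. On the log2 scale the contrasts differed by 14.61 for c153139.graph_c0 (adjusted p = 3.72e-07), by 11.44 for c166421.graph_c0 (adjusted p = 1.45e-05), by −9.34 for c154711.graph_c1 (adjusted p = 1.77e-06) and by −5.03 for c149215.graph_c0 (adjusted p = 7.08e-05). These genes were picked for the size of their drought minus submergence difference, so a gap to another contrast was favoured by the choice.

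Outside the compared rows, 6289 rows reached 10 counts in each of the submergence libraries. They had a median of 29 counts under submergence and of 0 in drought, title-heat, title-cold and control. In 4206 of them both drought libraries had 0 counts, and in 4215 both control libraries had 0.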

How the results depend on the processing

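Total counts in place of TMM factors moved the split between drought and submergence, to 2982 higher and 7608 lower control-read genes, 3741 and 7828 over all compared rows, 6089 genes in the same direction as title-heat minus title-cold, and 4% lower among the 100 most-read genes. RLE and upper-quartile factors, TMM factors from the control-read genes alone, both other filters, DESeq2, limma-voom, fits to fewer groups and rule thresholds of 5 and 30 counts kept each count of calls within 1.5 times. Admitting rows read in both submergence libraries gave 9150 lower genes. Allowing at most 3 counts in place of 0 gave 186 genes not read under drought and 209 not read under submergence. With each library left out in turn, the control-read genes numbered 3796 to 4836 higher and 2917 to 4141 lower, all compared rows 4335 to 5769 and 3017 to 4293, genes in the same direction 2917 to 3727, opposite 668 to 926, and higher genes among the 100 most-read 89% to 95%. A left-out library leaves its group with 1, assumed to vary like the other groups. The 4 named genes kept their direction and their call in all 21 alternatives each, which their choice as the largest differences favoured. Same-numbered drought and submergence libraries showed no shared shift, as their deviations correlated at r = 0.02. This cannot tell whether they were grown or prepared together, and the main fit did not pair them. With the replicate block, 4644 control-read genes were higher and 3912 lower. The scaling of the control-level classes was varied after the data had been seen. Rows near 10 counts carry the least precise values.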
